A study of Mus musculus with 8 samples.

Results

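The genes described here supply and use NADPH inside mitochondria to remove superoxide and peroxides. They are 10 genes chosen by name, of 55487 gene identifiers in the deposited tables. Nnt, Idh2 and Me3 make mitochondrial NADPH, Sod2 converts superoxide to hydrogen peroxide, and Gpx1, Gpx4, Prdx3, Prdx5, Txn2 and Txnrd2 remove peroxides or pass electrons to enzymes that do. Nnt is listed under 2 overlapping gene models, which were treated apart and summed, so that the 10 genes correspond to 11 identifiers, and all 11 passed the low-count filter.

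RNA was sequenced from islets picked by hand from the pancreas of C57BL/6J mice, labelled female, which from the age of 10 weeks ate a diet with 60 kcal% fat for 2 weeks. In 3 libraries the genotype was Ide-/- and in 5 it was Ide+/+, and both groups shared the strain and the diet. Ide encodes insulin-degrading enzyme, a metalloprotease known for degrading insulin, and the comparison concerned its absence during metabolic stress. The labels name the libraries as biological replicates without saying how many mice gave islets to each or how the allele was made, so p-values measure the spread between these libraries, which may be in part technical.

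NADPH is the electron donor that keeps glutathione and thioredoxin reduced. In the mitochondrial matrix, nicotinamide nucleotide transhydrogenase (the product of Nnt) makes it with energy from the proton gradient, while isocitrate dehydrogenase 2 and malic enzyme 3 make it from citrate cycle intermediates. Islet beta cells are known for low levels of enzymes that remove hydrogen peroxide, and the C57BL/6J strain is known for an in-frame deletion of several Nnt exons, which has been linked to weaker glucose-stimulated insulin secretion.

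The sequences below show the places in these transcripts on which the reading of the values depends. GRCm38 is the genome of C57BL/6J, and its annotation therefore joins exon 7 of Nnt (chr13:119381676-119381863, minus strand) directly to exon 8 (chr13:119374629-119374774), the junction at which the deleted exons are missing. It is shown in the transcript Nnt-202 with the end of exon 7 in lower case and the start of exon 8 in capitals, and it occurs in 3 of the 4 protein-coding transcripts annotated for Nnt.
Nnt exons 7 and 8: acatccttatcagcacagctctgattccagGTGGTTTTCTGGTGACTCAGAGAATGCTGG
Reads from the deleted exons would have no place in this genome, so the Nnt allele of the mice was not tested.

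Of the 10 genes, 3 encode selenoproteins, which read a TGA codon as selenocysteine at the active site and so depend on selenium as well as on transcript level. The codons are printed on the coding strand (plus strand for all 3 genes) with the TGA in capitals, at codon 47 of 201 in Gpx1 (chr9:108339451-108339453), codon 129 of 253 in the Gpx4 transcript Gpx4-201 (chr10:80054737-80054739) and codon 526 of 527 in Txnrd2 (chr16:18477772-18477774).
Gpx1: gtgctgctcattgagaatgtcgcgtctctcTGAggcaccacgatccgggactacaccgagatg
Gpx4: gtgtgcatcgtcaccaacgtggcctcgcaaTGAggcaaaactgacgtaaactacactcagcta
Txnrd2: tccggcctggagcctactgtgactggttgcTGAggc
In Gpx1 and Gpx4 the codon lies within the coding sequence, and in Txnrd2 1 codon follows it.

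As a check of the genotypes, Ide had 6, 7 and 4 counts in Ide-/- libraries, against 391, 765, 572, 481 and 256 counts in Ide+/+ libraries (log2 fold change −6.74, SE 0.39, adjusted p = 6.2e-06). Total counts ran from 7143424 to 17445976 in Ide-/- and from 19277303 to 33371662 in Ide+/+ libraries. Acinar markers took 0.753% to 1.69% of counts in Ide-/- libraries, against 25.2% to 43.4% in Ide+/+ libraries, and all 30 of them were lower in Ide-/- islets, with a median log2 fold change of −6.32 and none at 0 in every Ide-/- library. Beta cell markers took 13.5% to 22.0% in Ide-/- libraries, against 1.72% to 7.82% in Ide+/+ libraries, so the labelled tissue carried its defining transcripts in all 8. Ide+/+ replicate 1 stood apart, with 692 counts of Xist and 0 of the Y-linked Ddx3y. Every other library had at most 10.96 of Xist and 503 to 2139 of Ddx3y. The label is female for all, so the Ddx3y counts go against it in every library but Ide+/+ replicate 1. Ide+/+ replicates 2 and 3 were the most alike of the 13 pairs of libraries within a genotype. Their median chi-square per gene was 0.836, where sampling alone gives 0.455. The next closest of these pairs, Ide-/- replicates 1 and 2, had 2.15 at fewer counts. The next closest Ide+/+ pair, replicates 4 and 5, had 4.80. Ide+/+ replicates 2 and 3 differed by more than sampling noise and were kept as 2 libraries, so the main p-values count both. Values with them summed are given as an alternative.

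With library scaling by the trimmed mean of M values (TMM), which takes most genes as unchanged, transcripts of 6 of the 10 genes fell in Ide-/- islets: Idh2, Sod2, Gpx1, Gpx4, Prdx3 and Prdx5. Me3 rose, and Nnt (both models summed), Txn2 and Txnrd2 did not pass the test. Calls were made with the edgeR quasi-likelihood test at a Benjamini-Hochberg adjusted p under 0.05. Of the 16266 tested genes 10.4% were called higher and 10.6% lower. An unadjusted p under 0.05 was reached by 5877 of the 16266, higher and lower together. The median log2 fold change (Ide-/- over Ide+/+) of the 10 genes was −0.70, against −0.01 for all tested genes. The fall is relative to TMM scaling. When libraries were scaled to 30 other nuclear-encoded mitochondrial genes, none of the 10 was called lower and Prdx5, Txn2 and Txnrd2 changed sign, and on log2(TPM + 1) values, which use the deposited length-corrected level without rescaling, these 3 and Gpx1 did. With the acinar share of counts as a covariate none of the 10 was called and 7 changed sign: Sod2, Gpx1, Gpx4, Prdx3, Prdx5, Txn2 and Txnrd2. Levels by library are given in CPM, the count relative to library size with TMM scaling. In bulk tissue, fewer cells of a type and less RNA per cell cannot be told apart. The acinar share moved with all of these calls, and its part in them was not tested.

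**Figure D1:**
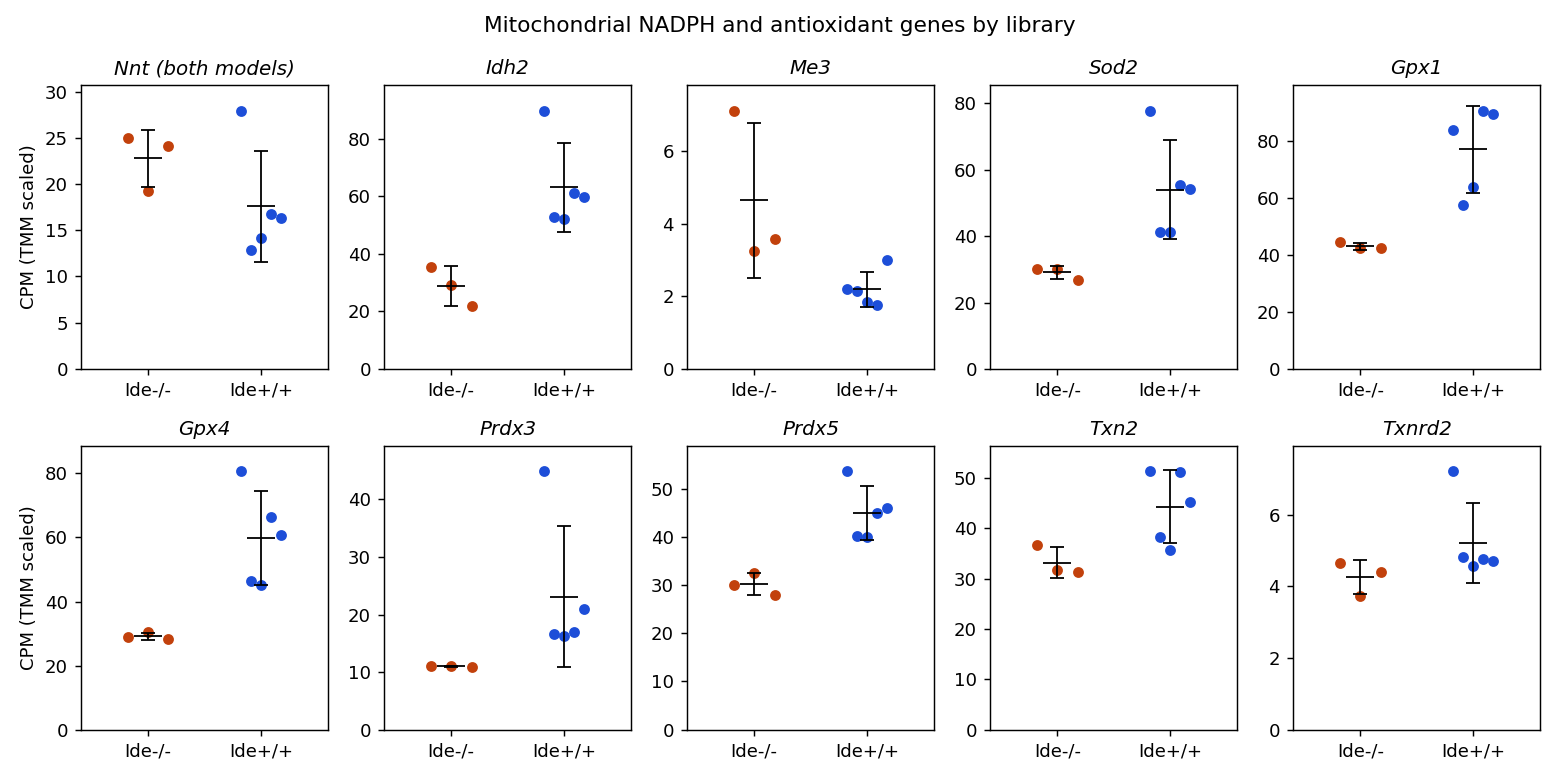
Level of each gene in CPM (counts relative to library size, TMM scaled), with 1 point per library (3 Ide-/- and 5 Ide+/+), the mean as a horizontal line and the SD as bars. The Ide-/- points lie below all Ide+/+ points for Idh2, Sod2, Gpx1, Gpx4, Prdx3 and Prdx5, and above them for Me3. Prdx5 changes sign when libraries are scaled to other mitochondrial genes, and Gpx1 and Prdx5 do on log2(TPM + 1) values. Sod2, Gpx1, Gpx4, Prdx3 and Prdx5 change sign, none of them called, with the acinar share as a covariate.

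Among the makers of NADPH, Nnt had 25.01, 19.2 and 24.1 CPM in Ide-/- islets, against 27.9, 12.8, 14.2, 16.8 and 16.3 CPM in Ide+/+ islets. All 3 Ide-/- values lay above 4 of the 5 Ide+/+ values, and Ide+/+ replicate 1 lay above them all. The means were 22.8 ± 3.11 CPM in Ide-/- (SD, n = 3) and 17.6 ± 5.99 CPM in Ide+/+ (SD, n = 5), and the log2 fold change of 0.38 (SE 0.25, 95% interval −0.16 to 0.92, adjusted p = 0.292) was not called. Without Ide+/+ replicate 1 the log2 fold change was 0.60 and was called (adjusted p = 0.0172), and with that library left out and replicates 2 and 3 summed it was 0.55 (adjusted p = 0.0482).

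The 2 Nnt gene models (ENSMUSG00000025453, chromosome 13, 119335448 to 119408997, and ENSMUSG00000116207, 119335528 to 119408952, minus strand) differed in their values when read apart. ENSMUSG00000025453 had 15.3, 11.9 and 20.5 CPM in Ide-/- libraries, against 4.30, 5.87, 2.91, 5.06 and 1.71 CPM in Ide+/+ libraries, with no overlap (log2 fold change 1.96, SE 0.32, adjusted p = 0.0022). ENSMUSG00000116207 had 9.74, 7.35 and 3.57 CPM in Ide-/- islets, against 23.6, 6.94, 11.3, 11.7 and 14.6 CPM in Ide+/+ libraries, with overlap (−0.94, SE 0.38, adjusted p = 0.102). The second was called lower only where Ide+/+ replicate 2 was left out, among the 8 libraries left out in turn. The rise of ENSMUSG00000025453 was called with any 1 library left out, at 1.74 to 2.16. Over all 21 alternative settings it was called in 20, with 0 changes of sign.

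The share of Nnt counts given to ENSMUSG00000025453 was 61.0%, 61.7% and 85.1% in Ide-/- libraries and 15.4%, 45.8%, 20.5%, 30.2% and 10.4% in Ide+/+ libraries, so every Ide-/- share lay above every Ide+/+ share. These shares rested on 899, 473 and 263 summed counts in Ide-/- and 279, 504, 400, 285 and 152 in Ide+/+ libraries. The 95% Wilson intervals of the 2 closest libraries were 57.8% to 64.2% for Ide-/- replicate 1 and 41.5% to 50.2% for Ide+/+ replicate 2, which cover counting error only. The annotation gives no firm ground for the division, because all 3339 exonic bases of ENSMUSG00000116207 lie within ENSMUSG00000025453. Nnt-206, the only transcript of ENSMUSG00000116207, shares all 16 of its exon junctions with Nnt-202 of ENSMUSG00000025453, which adds 45 bases at the 5′ end and 80 at the 3′ end. A further 4 transcripts of ENSMUSG00000025453 skip exons, retain introns or end elsewhere, and 3698 of its 7037 exonic bases occur in it alone. Reads in the shared bases were divided by the counting model, with estimates that were not whole numbers for either model in all 8 libraries, while the sums were whole. The sum is therefore the firmer measure of Nnt.

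**Figure D2:**
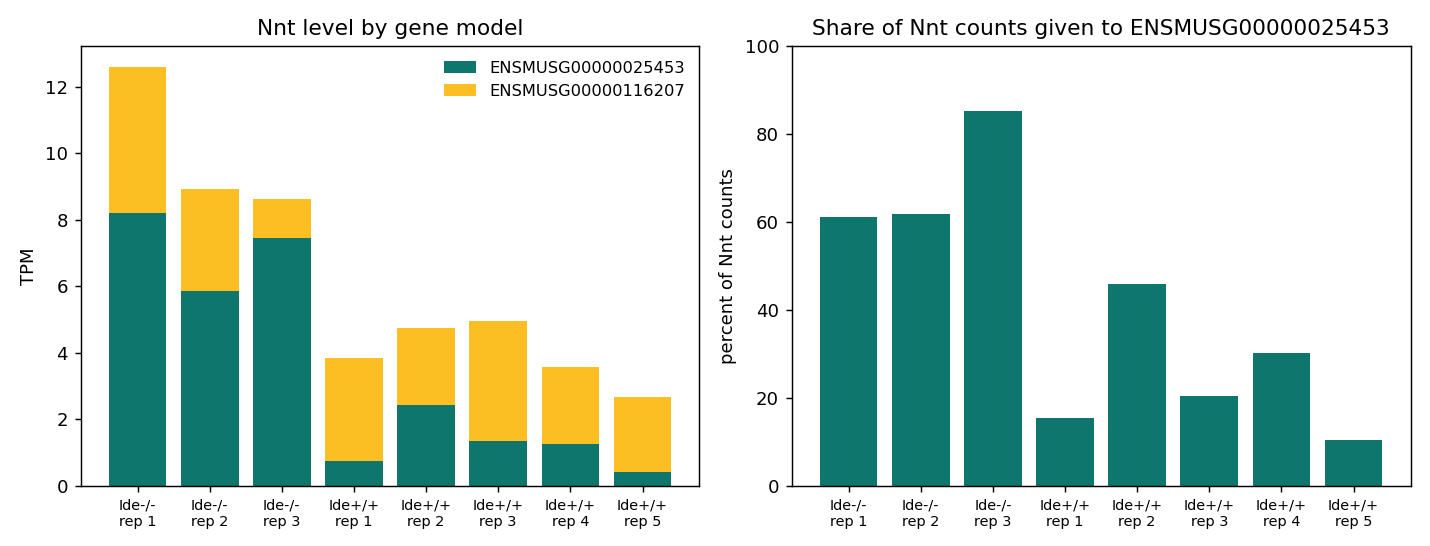
Left, Nnt level in TPM (as deposited, corrected for transcript length) per library, stacked by gene model. Right, the percent of Nnt counts given to ENSMUSG00000025453. The summed level is 8.63 to 12.59 TPM in Ide-/- and 2.67 to 4.96 TPM in Ide+/+ libraries, and the share is 61.0% to 85.1% in Ide-/- and 10.4% to 45.8% in Ide+/+ libraries.

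Idh2 (ENSMUSG00000030541; chromosome 7, 80094846 to 80115392, minus strand), which makes NADPH as it oxidises isocitrate, had 35.6, 29.3 and 21.8 CPM in Ide-/- islets, against 89.7, 52.8, 52.05, 61.0 and 59.8 CPM in Ide+/+ islets. The highest Ide-/- value was below the lowest Ide+/+ value. Its log2 fold change came to −1.12 (SE 0.25, adjusted p = 0.0106), and the call was lost without Ide-/- replicate 2 (adjusted p = 0.0505) or 3 (0.0604). It was also the only 1 of the 10 genes called lower when libraries were scaled to 18 secretory granule genes (−1.03, adjusted p = 0.0254). That yardstick was not itself unchanged: with TMM, 4 of the 18 were called higher (Syt7, Ptprn, Pam and Vgf) and 0 lower. The median of the 18 was −0.21 on the log2 scale.

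Me3 (ENSMUSG00000030621; chromosome 7, 89632392 to 89854359, plus strand), which makes NADPH as it converts malate to pyruvate, moved the other way. It had 7.12, 3.25 and 3.57 CPM in Ide-/- islets, against 2.20, 2.16, 1.85, 1.76 and 3.00 CPM in Ide+/+ islets. Ide-/- replicate 1 was far above the other libraries, and the remaining Ide-/- values lay just above the highest Ide+/+ value. The log2 fold change of 1.12 (SE 0.30, adjusted p = 0.0231) was 0.65 without Ide-/- replicate 1 (adjusted p = 0.198), and the call was also lost without Ide+/+ replicate 4 (1.05, adjusted p = 0.0616).

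Sod2 (ENSMUSG00000006818; chromosome 17, 13006846 to 13040063, plus strand) encodes the manganese superoxide dismutase of the matrix. Its level was 30.2, 30.1 and 26.9 CPM in Ide-/- islets, against 77.8, 41.3, 41.2, 55.5 and 54.2 CPM in Ide+/+ islets, with no overlap (log2 fold change −0.89, SE 0.24, adjusted p = 0.0230). The 3 Ide-/- values were close together, and the Ide+/+ values were lowest in replicates 2 and 3, the Ide+/+ libraries with the lowest acinar shares. The call was lost without any 1 of the Ide-/- libraries or Ide+/+ replicate 4 (adjusted p = 0.0536 to 0.0948).

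Both glutathione peroxidase genes were lower on TMM-scaled counts. Gpx1 (ENSMUSG00000063856; chromosome 9, 108338903 to 108340343, plus strand), which reduces hydrogen peroxide in cytosol and mitochondria, had 44.4, 42.3 and 42.3 CPM in Ide-/- islets, against 83.8, 57.6, 63.7, 90.5 and 89.5 CPM in Ide+/+ islets (log2 fold change −0.84, SE 0.22, adjusted p = 0.0212; 0.11 on log2(TPM + 1) values, adjusted p = 0.778). Gpx4 (ENSMUSG00000075706; chromosome 10, 80047166 to 80056439, plus strand), which reduces lipid peroxides in membranes, had 28.8, 30.4 and 28.3 CPM in Ide-/- islets, against 80.6, 46.3, 45.2, 66.3 and 60.8 CPM in Ide+/+ islets (−1.03, SE 0.23, adjusted p = 0.0109). Neither gene overlapped between genotypes, and both were lowest among Ide+/+ libraries in replicates 2 and 3. The Gpx4 call was lost without Ide-/- replicate 3 (adjusted p = 0.0531), and the Gpx1 call without any 1 of the Ide-/- libraries or Ide+/+ replicate 4 (0.0549 to 0.0918). Gene counts do not separate the mitochondrial form of Gpx4 from the others.

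The peroxiredoxins reduce peroxides with electrons from thioredoxin. Prdx3 (ENSMUSG00000024997; chromosome 19, 60864051 to 60874556, minus strand), the mitochondrial peroxiredoxin, had 11.1, 11.05 and 10.9 CPM in Ide-/- islets, against 44.8, 16.6, 16.3, 16.9 and 20.9 CPM in Ide+/+ islets. The 3 Ide-/- libraries were nearly equal, with an SD of log2 CPM of 0.02 against a median of 0.25 over all tested genes in Ide-/-. In Ide+/+ the SD was 0.62, and 0.17 without replicate 1, the library far above the rest, against a median of 0.43 over all tested genes in the 5 libraries. The Prdx3 fold change was −1.06 on the log2 scale (SE 0.33, adjusted p = 0.0425) and −0.68 without Ide+/+ replicate 1 (adjusted p = 0.0075). With the acinar share as a covariate it was 0.77 (SE 0.66, adjusted p = 0.591). The call was lost without any 1 of the Ide-/- libraries or Ide+/+ replicate 4 or 5 (adjusted p = 0.0548 to 0.128).

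Prdx5 (ENSMUSG00000024953; chromosome 19, 6906697 to 6910106, minus strand), found in mitochondria, peroxisomes and cytosol, had 30.1, 32.6 and 27.9 CPM in Ide-/- islets, against 53.6, 40.1, 39.9, 45.0 and 46.0 CPM in Ide+/+ islets. The groups did not overlap, and the log2 fold change of −0.57 (SE 0.19, adjusted p = 0.0476) was the smallest of the 6 called falls. Its call was kept only without Ide+/+ replicate 1 when libraries were left out in turn, and the sign turned on log2(TPM + 1) values (0.40, adjusted p = 0.285) and on scaling to mitochondrial genes. Prdx3 and Prdx5 lie on the chromosome of Ide, 23.5 and 30.4 Mb from it.

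The thioredoxin pair that feeds Prdx3 was not called. Txn2 (ENSMUSG00000005354; chromosome 15, 77915047 to 77929006, minus strand), the mitochondrial thioredoxin, had 36.7, 31.7 and 31.2 CPM in Ide-/- islets, against 51.3, 38.2, 35.7, 51.2 and 45.2 CPM in Ide+/+ islets (log2 fold change −0.41, SE 0.20, 95% interval −0.85 to 0.02, adjusted p = 0.154). Txnrd2 (ENSMUSG00000075704; chromosome 16, 18426384 to 18479073, plus strand), the reductase that passes electrons from NADPH to Txn2, had 4.65, 3.74 and 4.40 CPM in Ide-/- islets, against 7.21, 4.81, 4.58, 4.77 and 4.72 CPM in Ide+/+ islets (−0.28, SE 0.22, 95% interval −0.77 to 0.21, adjusted p = 0.390). For each gene 1 Ide-/- value lay within the Ide+/+ range, and both intervals include falls as well as no change.

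Without overlap between genotypes, 1 of the 10 genes was above and 6 were below every library of the other genotype, where 17.4% of all tested genes were higher and 15.6% lower in the same sense. The calls rested on few libraries. Leaving out each library in turn gave 0 to 2 genes higher and 0 to 6 lower, with 0 lower without Ide-/- replicate 3 (6 at an unadjusted p under 0.05) and 1 without Ide-/- replicate 2. Without Ide+/+ replicate 1 there were 2 higher and 6 lower, and with Ide+/+ replicates 2 and 3 summed there were 1 higher and 5 lower. RSEM estimates were whole numbers (within 0.01) in all libraries for Idh2, Gpx1, Prdx3 and Txn2. They were not whole in 8 libraries for Gpx4 and Prdx5, in 7 for Me3 and Sod2 and in 3 for Txnrd2, whose reads were thus shared in part with other annotated genes.

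Part of a list of other mitochondrial genes was lower too. Of 30 nuclear-encoded mitochondrial genes outside the group (respiratory chain, citrate cycle, import and matrix chaperones), 14 were lower and 0 higher in Ide-/- islets (21 and 0 at an unadjusted p under 0.05), and 16 were not called. The 14 were 46.7% of the list, where 10.6% of all tested genes were called lower. The unadjusted counts are read against 5877 of all 16266 tested genes, higher and lower together. The median of the 30 was −0.77 on the log2 scale, against −0.01 for all tested genes. The respiratory chain gene Cox4i1 fell to 60.1 ± 2.65 CPM in Ide-/- islets, against 120 ± 22.3 CPM in Ide+/+ islets, and Cox5a, of the same complex, to 16.9 ± 0.96 CPM, against 44.1 ± 17.97 CPM. The ATP synthase gene Atp5b fell to 90.2 ± 8.03 CPM in Ide-/-, against 195 ± 52.9 CPM in Ide+/+, and the prohibitin gene Phb to 20.5 ± 0.61 CPM, against 40.8 ± 10.2 CPM. Summed, the list had 968 to 1030 CPM in Ide-/- islets, against 1351 to 2608 CPM in Ide+/+ libraries.

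Relative to those 30 genes, Nnt and Me3 were higher in Ide-/- islets and none of the 10 was lower (edgeR, with 0 lower also at an unadjusted p under 0.05). In that scaling 38.3% of all tested genes were called higher and 3.38% lower, and the median of all genes stood at 0.72, so the 2 calls are read against a shifted whole. The log2 fold change of summed Nnt was 1.21 (SE 0.18, adjusted p = 0.0019), 0.48 above that median, and that of Me3 was 1.86 (SE 0.36, adjusted p = 0.0044), 1.13 above it. Idh2 (−0.32), Gpx4 (−0.22), Prdx3 (−0.19), Sod2 (−0.07) and Gpx1 (−0.05) were not called, nor were Prdx5 (0.20), Txn2 (0.37) and Txnrd2 (0.50), and these 8 lay below the median of all genes. On log2(TPM + 1) values tested with limma, where the median of all genes was 0.50, the same 2 genes were called higher (Nnt 1.16, adjusted p = 0.0076, and Me3 0.97, adjusted p = 0.0163) and 0 lower (0 also at an unadjusted p under 0.05). With scaling to secretory granule genes 0 were higher and Idh2 alone was lower (1 and 5 at an unadjusted p under 0.05). Of all calls 49.6% were higher with TMM, 91.9% with mitochondrial scaling and 93.5% on log2(TPM + 1) values.

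**Figure D3:**
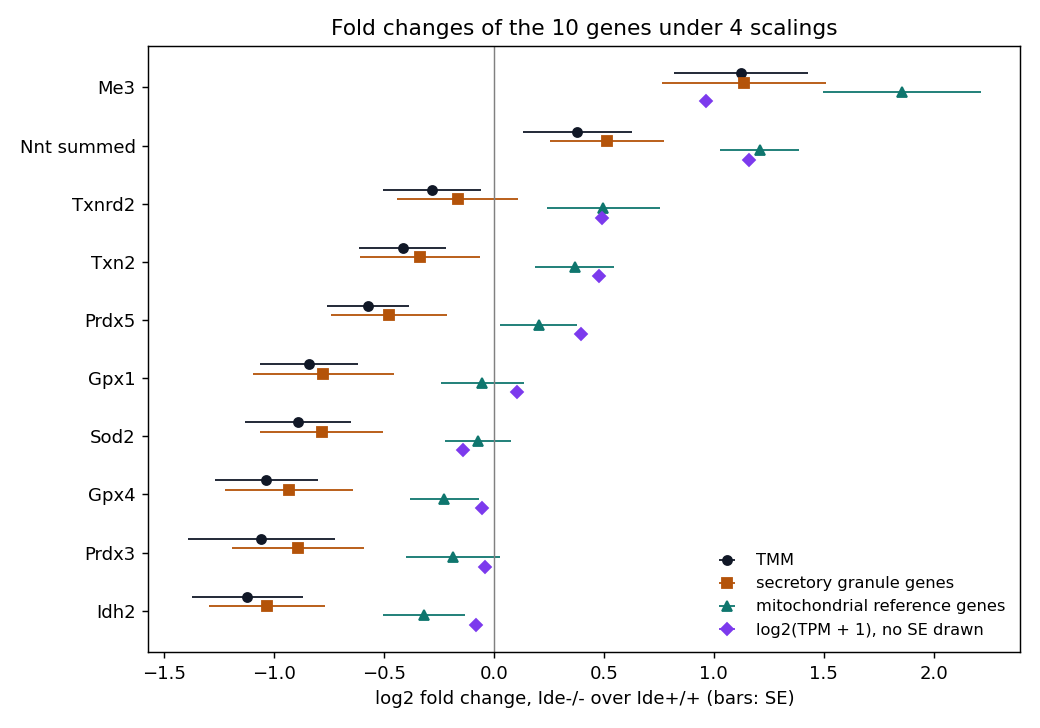
Log2 fold change (Ide-/- over Ide+/+) of each of the 10 genes under 4 scalings, with bars for the SE (not drawn for the TPM values). Mitochondrial scaling places every gene to the right of its TMM value. Prdx5, Txn2 and Txnrd2 are above 0 with mitochondrial scaling and on TPM values, Gpx1 on TPM values, and Me3 and summed Nnt in all 4.

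TPM corrects for transcript length and allows the genes to be compared with each other. In Ide-/- islets the order of mean TPM was Gpx1 (69.9 ± 13.0), Gpx4 (56.6 ± 10.9), Prdx5 (43.6 ± 9.002), Txn2 (37.4 ± 7.58), Idh2 (29.99 ± 12.6), Sod2 (23.2 ± 5.77), Prdx3 (10.5 ± 1.77), Nnt (10.05 ± 2.21), Txnrd2 (4.31 ± 0.84) and Me3 (2.85 ± 1.78; SD, n = 3). In Ide+/+ islets it was Gpx1 (65.8 ± 16.3), Gpx4 (59.1 ± 12.8), Prdx5 (33.6 ± 9.92), Idh2 (30.9 ± 9.81), Txn2 (27.0 ± 7.41), Sod2 (25.4 ± 4.00), Prdx3 (11.1 ± 3.03), Nnt (3.96 ± 0.93), Txnrd2 (2.82 ± 0.84) and Me3 (0.86 ± 0.23; SD, n = 5). Gpx1, Gpx4 and Prdx5 thus stood at the top, and Nnt, Txnrd2 and Me3 at the bottom, in both genotypes. Neighbours whose ranges did not overlap were Sod2 above Prdx3 and Nnt above Txnrd2 in Ide-/- islets. In Ide+/+ islets they were Sod2 above Prdx3, Prdx3 above Nnt and Txnrd2 above Me3, and the ranges of all other neighbours overlapped.

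Nnt had the eighth highest mean TPM of the 10 in both genotypes. It had 12.59, 8.92 and 8.63 TPM in Ide-/- and 3.85, 4.74, 4.96, 3.57 and 2.67 TPM in Ide+/+ libraries, with no overlap. Prdx3 was above Nnt in 1 of 3 Ide-/- libraries and in 5 of 5 Ide+/+ libraries. The mean TPM of Nnt in Ide-/- was 2.54 times that in Ide+/+, while on TMM-scaled counts the groups overlapped. Most calls on TPM values went up: limma on log2(TPM + 1) called 5925 genes higher and 415 lower, with a median of 0.50 over all genes. The gap in Nnt is read against that shift, and the share of all genes without overlap on TPM was not counted.

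As a share of the summed TPM of the 10 genes, which does not depend on library scaling, Nnt took 3.52% ± 0.52 in Ide-/- and 1.53% ± 0.23 in Ide+/+ islets and Me3 took 0.95% ± 0.42 in Ide-/- and 0.33% ± 0.03 in Ide+/+ islets, both without overlap. Txn2 took 13.0% ± 0.70 in Ide-/- and 10.3% ± 0.66 in Ide+/+, and Txnrd2 took 1.52% ± 0.25 in Ide-/- and 1.07% ± 0.08 in Ide+/+, again without overlap. Gpx4 lay lower, with 19.7% ± 0.82 in Ide-/- and 22.8% ± 1.35 in Ide+/+, as did Sod2, with 8.02% ± 0.60 in Ide-/- and 9.88% ± 0.82 in Ide+/+ and only a narrow gap between the groups. Gpx1, the largest share, took 24.4% ± 0.96 in Ide-/- and 25.3% ± 2.89 in Ide+/+, with overlap. These shares were chosen for display after the data were seen and were not tested, and a gain by 1 gene lowers the shares of the others. How often genes at large lack overlap on TPM was not counted. On log2(TPM + 1) values the fold changes of Txn2 (0.48) and Txnrd2 (0.49) were close to the median of all genes (0.50).

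**Figure D4:**
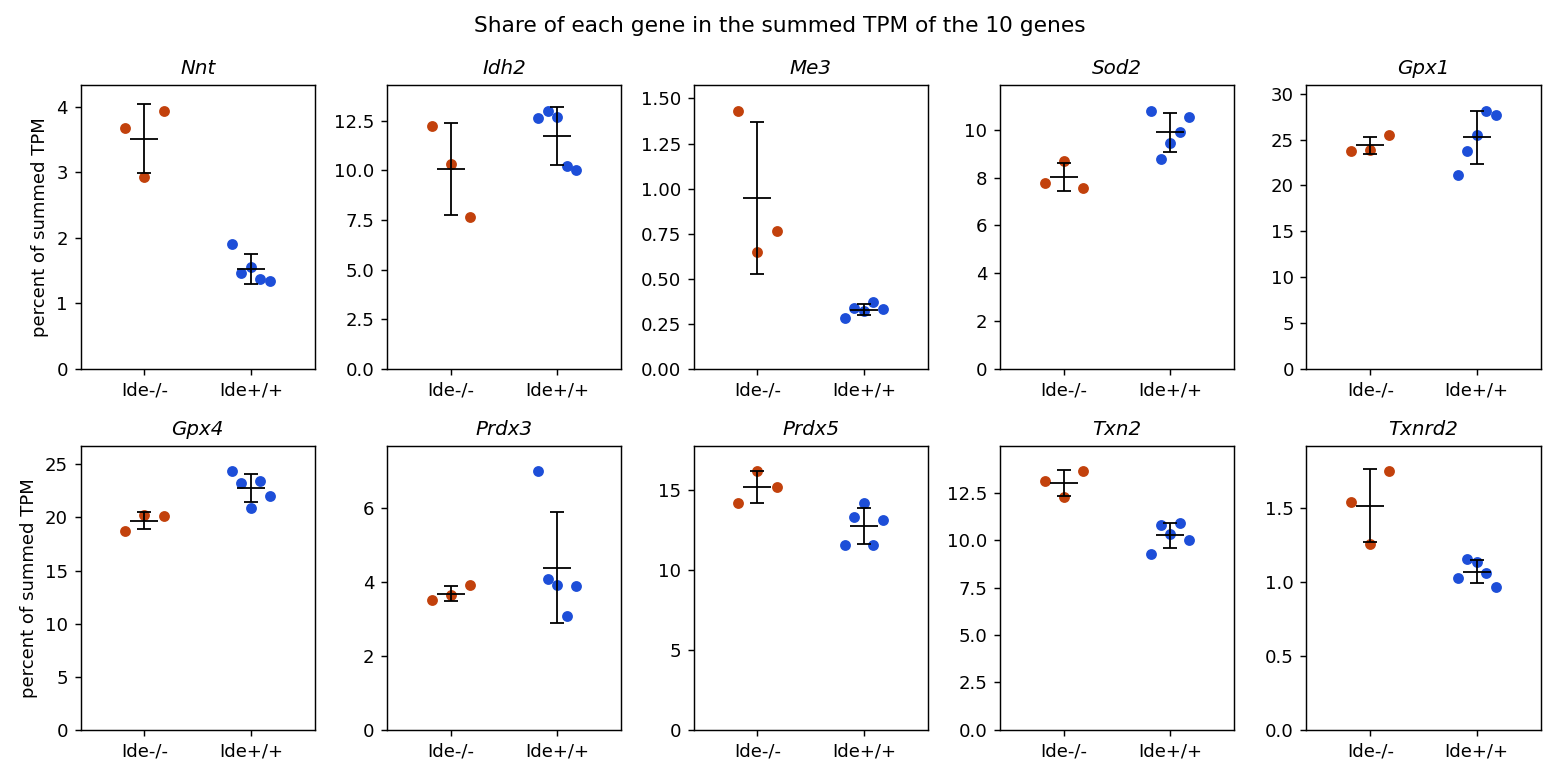
Share of each gene in the summed TPM of the 10 genes, in percent, with 1 point per library (3 Ide-/- and 5 Ide+/+), the mean and the SD. Nnt, Me3, Txn2 and Txnrd2 have all Ide-/- points above the Ide+/+ points, Gpx4 and Sod2 have them below, and Gpx1 and Idh2 overlap. The shares were not tested, and lack of overlap on TPM was not counted over all genes.

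Ratios of 2 genes within a library also do not depend on scaling, and 10 were tested by exact permutation of the genotype labels (two-sided), for which the smallest possible p is 0.0179. At least 4 ratios at that p were needed for any to pass 0.05 after adjustment over the 10, and none passed. The 3 ratios at that p did not overlap between genotypes. They were the 2 Nnt models (ENSMUSG00000025453 over ENSMUSG00000116207, mean log2 ratio 1.45 ± 0.96 in Ide-/- and −1.25 ± 0.91 in Ide+/+), mitochondrial over cytosolic malic enzyme (Me3 over Me1, 0.87 ± 0.55 in Ide-/- and −0.04 ± 0.29 in Ide+/+) and mitochondrial over cytosolic superoxide dismutase (Sod2 over Sod1, −2.11 ± 0.28 in Ide-/- and −1.13 ± 0.42 in Ide+/+). Each had an adjusted exact p of 0.0595, with n = 3 Ide-/- and 5 Ide+/+ libraries. Txnrd2 over cytosolic Txnrd1 was −0.65 ± 0.16 in Ide-/- and −0.28 ± 0.17 in Ide+/+ (exact p = 0.0357, adjusted 0.0893), also without overlap. Prdx3 over Prdx1 was −2.98 ± 0.01 in Ide-/- and −2.74 ± 0.18 in Ide+/+ (exact p = 0.0714). Prdx3 over Prdx5 was −2.03 ± 0.10 in Ide-/- and −1.59 ± 0.49 in Ide+/+ (exact p = 0.125). Neither of these Prdx3 ratios overlapped between genotypes. Idh2 over Idh1 differed by −0.14 (exact p = 0.714) and Txn2 over Txn1 by −0.01 (exact p = 0.875), both within the spread of the libraries. Both changed sign when single libraries were left out (−0.45 to 0.23 and −0.05 to 0.04).

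**Figure D5:**
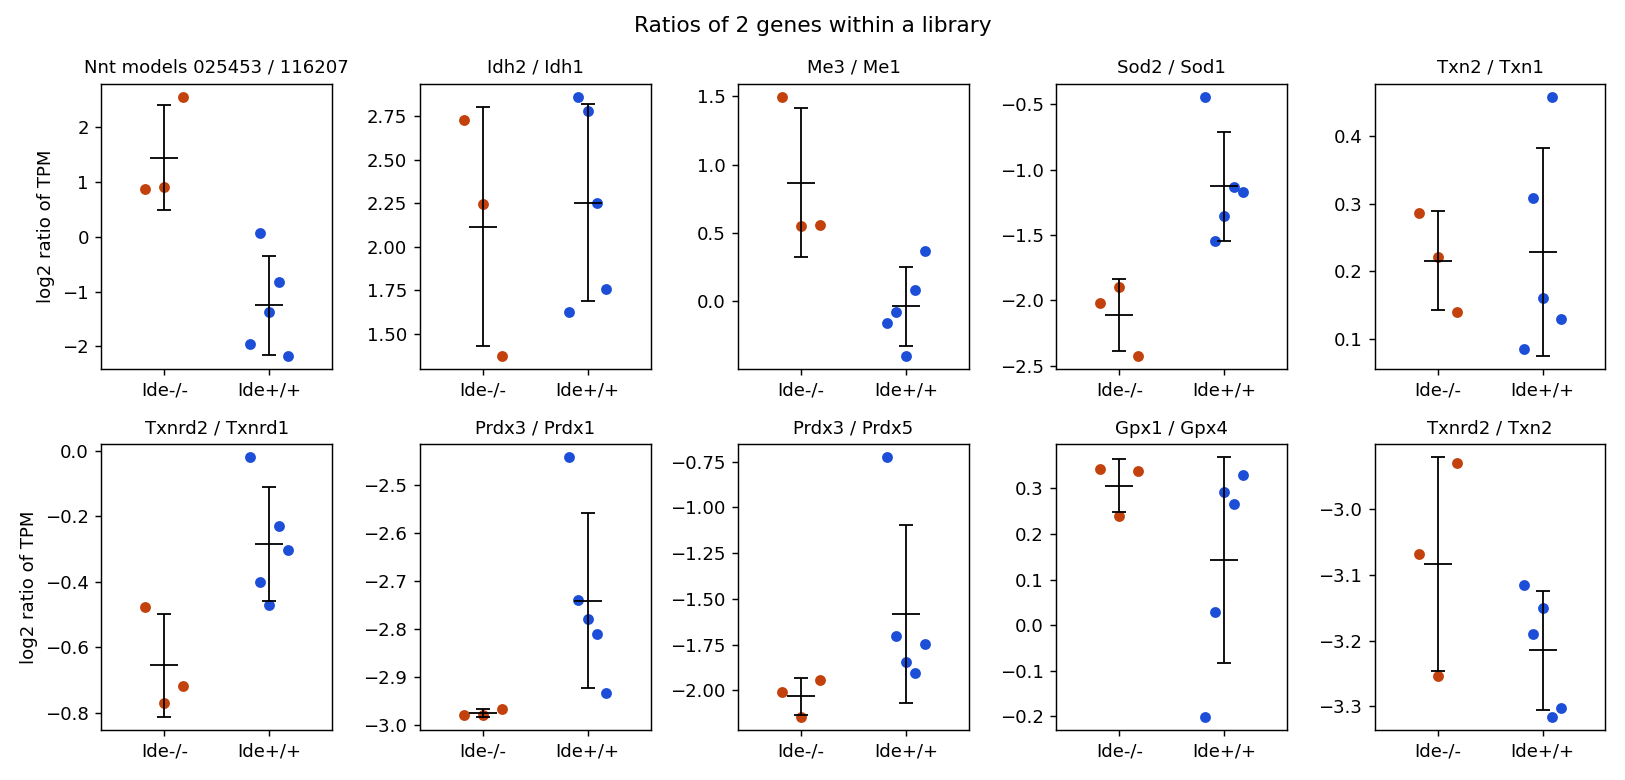
Log2 ratios of TPM (pseudocount 0.1) of 2 genes within each library, with 1 point per library, the mean and the SD. The Nnt model ratio and Me3 over Me1 are higher in all 3 Ide-/- libraries than in any of the 5 Ide+/+ libraries. Sod2 over Sod1, Txnrd2 over Txnrd1, Prdx3 over Prdx1 and Prdx3 over Prdx5 are lower in the same sense. None of the 10 ratios passed the adjusted test.

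Partner genes of mitochondrial NADPH and redox metabolism were lower or not called. Of 22 tested with edgeR, 8 fell and 0 rose (13 lower and 2 higher at an unadjusted p under 0.05), and their median was −0.71 on the log2 scale. The 8 were 36.4% of the list, where 10.6% of all tested genes were called lower. An unadjusted p under 0.05 was found for 5877 of all 16266 tested genes. Slc25a39, which brings glutathione into mitochondria, fell to 30.8 ± 5.61 CPM in Ide-/- islets, against 78.4 ± 15.8 CPM in Ide+/+ islets (log2 fold change −1.35, adjusted p = 0.0032). Mthfd2 and Shmt2, enzymes of mitochondrial folate metabolism, fell to 12.1 ± 1.48 and 3.63 ± 1.45 CPM in Ide-/-, against 40.2 ± 15.9 and 10.3 ± 2.88 CPM in Ide+/+. The dicarboxylate carrier gene Slc25a10 fell to 1.24 ± 0.63 CPM in Ide-/-, against 4.61 ± 1.52 CPM in Ide+/+, and the other 4 were Msra, Aldh1l2, Hagh and Me2.

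Of 18 cytosolic and peroxisomal counterparts 4 were lower and 0 higher (9 and 0 at an unadjusted p under 0.05), with a median of −0.53. The 4 were 22.2% of the list, where 10.6% of all tested genes were called lower. Prdx4, the peroxiredoxin of the endoplasmic reticulum, had the largest of the 4 falls, to 14.5 ± 1.91 CPM in Ide-/- islets, against 153 ± 82.1 CPM in Ide+/+ islets (log2 fold change −3.40, adjusted p = 0.0010). Catalase (Cat) fell to 5.21 ± 1.17 CPM in Ide-/-, against 16.6 ± 5.46 CPM in Ide+/+, and the NAD kinase gene Nadk to 9.79 ± 1.37 CPM, against 22.6 ± 5.23 CPM. G6pdx, the entry enzyme of the pentose phosphate pathway, had a log2 fold change of −0.73 (adjusted p = 0.0469). Of 22 other genes of selenoproteins and selenium use, 1 was higher and 3 lower (4 and 6 at an unadjusted p under 0.05), with a median of −0.06. These shares, 4.55% higher and 13.6% lower, were not far from the 10.4% and 10.6% of all tested genes. The unadjusted counts are likewise read against 5877 of all 16266 tested genes. Secisbp2, which recruits the selenocysteine machinery to the transcript, rose to 19.3 ± 0.69 CPM in Ide-/-, against 11.6 ± 2.20 CPM in Ide+/+. The selenoprotein genes Msrb1 (−2.54), Sephs2 (−1.49) and Selenop (−1.62) fell. Scly (0.69, adjusted p = 0.0635), Sepsecs (0.54, adjusted p = 0.0702) and Selenom (0.56, adjusted p = 0.0528) were not called by edgeR, and their 3 Ide-/- libraries lay above all 5 Ide+/+ libraries. Eefsec (−0.66, adjusted p = 0.0534), Selenof (−0.69, adjusted p = 0.148) and Selenoi (−0.49, adjusted p = 0.106) were not called either, and lay below all 5. These uncalled genes were named after their values were seen. Of all tested genes 17.4% were higher and 15.6% lower without overlap.

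Markers of other cells moved with the genotype beside these lists. Of 10 duct markers 8 were lower, of 10 tested macrophage markers 9 were lower, and of 10 endothelial markers 0 were called by edgeR (0 also at an unadjusted p under 0.05). Of all tested genes 10.4% were called higher and 10.6% lower. On TMM-scaled counts, summed macrophage markers had 80.6 to 130 CPM in Ide-/- islets, against 326 to 600 CPM in Ide+/+ libraries. Summed duct markers had 288 to 310 CPM in Ide-/- islets, against 1012 to 2716 CPM in Ide+/+ libraries. As a percent of counts without scaling, macrophage markers overlapped (0.0166% to 0.0199% in Ide-/-, against 0.0132% to 0.0472% in Ide+/+ libraries). Duct markers did not overlap on that measure (0.0469% to 0.0594% in Ide-/-, against 0.0770% to 0.136% in Ide+/+ libraries). Of 12 beta cell markers 0 were called (1 lower at an unadjusted p under 0.05). With the acinar share added to the model none of the 10 genes was called (1 higher and 0 lower at an unadjusted p under 0.05), the median SE over all genes was 2.43 times as large, and 1 gene was higher and 12 lower in all (2432 at an unadjusted p under 0.05), Ide among them (adjusted p = 0.0014). No Ide-/- library reached the acinar share of any Ide+/+ library, so acinar content and genotype cannot be told apart here.

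The genes whose profile over the 8 libraries was most like that of summed Nnt were Ppp2r3c (a regulatory subunit of protein phosphatase 2A), Srp72 (a subunit of the signal recognition particle), Wtap (a subunit of the RNA adenosine methyltransferase complex), Prune2 and Pex11g (a peroxisomal membrane protein). Likeness was the root mean square difference of centred log2 CPM, which was 0.107 for Ppp2r3c and 0.129 to 0.133 for the other 4, among 8465 genes at a mean level of 5 CPM or more. Ppp2r3c had 18.5, 16.3 and 21.2 CPM in Ide-/- islets, against 24.2, 9.64, 10.4, 13.9 and 14.4 CPM in Ide+/+ libraries, with Ide+/+ replicate 1 above all others as for Nnt. Of the other 9 genes of the group, Txn2 was closest to Nnt at rank 3397 and Idh2 farthest at rank 7236, and Me3 and Txnrd2 were below the minimum level.

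Promoter windows were searched for TGACNNNGC on both strands, the core of the antioxidant response element that the factor NRF2 binds. In RefSeq windows on GRCm38 (250 bases before to 50 after each start), it was in 0 of the 12 windows of 9 of the genes, and in 12.4% of the 32851 windows in all. Nnt had no entry.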

How the data were processed

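Gene expression was measured by RNA sequencing in 8 islet libraries, 3 Ide-/- and 5 Ide+/+, grouped by the genotype in the labels. Per the labels' protocols, libraries were made from 100 ng of RNA with a low-input kit. The submitters' processing notes name STAR 2.7.1a, RSEM 1.3.1 and GRCm38, while the sources used here do not give the annotation release or the strandedness. The authors deposited an expected count per gene, in which RSEM divides reads that match several genes among them, without normalization. The deposited TPM values take transcript length into account and are relative to the rest of their library.

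Symbols and positions came from GENCODE M21, which matched 55141 of 55487 identifiers. Expected counts were rounded and tested in edgeR 4.0.16 with the quasi-likelihood F test (R 4.3.3, robust, TMM scaling, filterByExpr with a minimum count of 10 and a minimum total of 15), with Benjamini-Hochberg adjustment over all tested genes. The SE is the log2 fold change over the square root of F. Summed Nnt was tested in the same fit with its 2 rows replaced by their sum. TPM ratios were tested with exact permutation tests (scipy 1.17.1). Alternatives used DESeq2 1.42.0 and limma 3.58.1. On simulated counts of 15483 genes, 14.1% of 2-fold and 83.0% of 4-fold changes were called, and 4 of 95 calls were false. Only 200 genes were chosen to change, with no shift in acinar share, so these rates need not hold for the real libraries.

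The 10 genes, the gene lists and the marker lists were chosen with earlier results of these data known. Named besides the 10 were Ide, up to 4 called genes of each pathway list by smallest p, and the 5 genes most like Nnt. Msra, Aldh1l2, Hagh and Me2 were named after their values were seen, as were Xist, Ddx3y and the selenium genes that were not called. Shares of the summed TPM, and the summing of Ide+/+ replicates 2 and 3, were chosen after the data were seen.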

Additional observations from a re-analysis of the deposited data

Results flagged for a closer look

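Ide+/+ replicate 1 stood far above the other 4 Ide+/+ libraries for 5 of the 22 quantities examined for such gaps. Chance would mark about 1 in 20 of independent quantities. These are not independent, since CPM values of a library share 1 scaling factor and some genes enter several quantities. The 2 rates therefore cannot be compared as a test. On TMM-scaled counts it had 27.9 CPM of summed Nnt, against 12.8 to 16.8 CPM in the other Ide+/+ libraries, and 89.7 CPM of Idh2, against 52.05 to 61.0 CPM. It had 44.8 CPM of Prdx3, against 16.3 to 20.9 CPM, and 7.21 CPM of Txnrd2, against 4.58 to 4.81 CPM. The log2 ratio of Prdx3 over Prdx5, which does not depend on scaling, was −0.73 in that library and −1.90 to −1.70 in the others. The same library had the Xist and Ddx3y counts that set it apart, the lowest TMM factor (0.406) and the highest acinar share of counts (43.4%), and the part of these in the gaps was not tested.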

How the results depend on the processing

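With RLE scaling, acinar markers removed before scaling, no low-count filter, DESeq2 or limma-voom, the 10 genes gave 1 higher and 5 or 6 lower, and no sign changed. The cause of the following changes was not tested. Scaling to secretory granule genes gave 865 genes higher and 862 lower in all, with 0 of the 10 higher and 1 lower. Scaling to mitochondrial genes gave 6226 higher and 550 lower, with 2 of the 10 higher and 0 lower, and Prdx5 (0.20), Txn2 (0.37) and Txnrd2 (0.50) changed sign. Limma on log2(TPM + 1) gave 5925 higher and 415 lower, with 2 and 0 of the 10, and Gpx1 (0.11), Prdx5 (0.40), Txn2 (0.48) and Txnrd2 (0.49) changed sign. Limma on log2(TPM + 0.1) gave 4737 higher and 389 lower, with 2 and 0 of the 10, and Gpx1 (0.11), Prdx5 (0.41), Txn2 (0.50) and Txnrd2 (0.63) changed sign, with the median of all genes at 0.83. With the acinar share as a covariate 1 gene was higher and 12 lower, with 0 and 0 of the 10. The Nnt model ENSMUSG00000116207 (1.06), Sod2 (0.48), Gpx1 (0.27), Gpx4 (0.30), Prdx3 (0.77), Prdx5 (0.042), Txn2 (0.45) and Txnrd2 (0.33) then changed sign, none of them called. Leaving out each library in turn gave 694 to 2141 genes higher and 809 to 2139 lower, with 0 to 2 of the 10 higher and 0 to 6 lower. With Ide+/+ replicates 2 and 3 summed and replicate 1 left out, 2 of the 10 were higher and 6 lower. With the replicate number as a block over replicates 1 to 3 of each genotype, 482 genes were higher and 647 lower, with 0 of the 10 higher and 1 lower. Same-numbered libraries deviated with correlations of −0.017, −0.019 and 0.020. These cannot decide whether the numbers pair the libraries, because Ide+/+ replicates 2 and 3 are nearly alike and replicate 1 stands apart. The block fit also has fewer libraries. No ratio changed sign with a pseudocount of 1 or with counts in place of TPM. With a library left out 5 of 80 values changed sign, for Idh2 over Idh1 (−0.45 to 0.23) and Txn2 over Txn1 (−0.048 to 0.045). The adjusted p of the ratios says nothing of their stability, since this design can hardly pass the threshold. Depth limits Me3 most among the 10, whose estimates were as low as 21.67 counts in a library.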
